A study of Homo sapiens with 8 samples.

Results

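Transcripts of the machinery that imports proteins into mitochondria were followed in HSC39, a human gastric cancer line of the signet ring type, after small interfering RNA (siRNA) against TRIM44, a tripartite motif protein. The genes are TOMM22, TOMM20, TOMM40, TOMM5, TOMM7 and TOMM34, and TIMM23, TIMM17A, TIMM44 and TIMM50. Every probe set annotated with exactly 1 symbol, that of a member, was taken. This gave 9 probe sets for 8 of the 10 genes, out of 19158 single-symbol probe sets of 18404 genes. TOMM5 and TOMM7 have only probe sets shared with another gene. TOMM22 was chosen by its low log2 level on the siRNA 9 arrays against negative siRNA, and the other members because they act in the same pathway. Values of the members that use the siRNA 9 arrays are therefore given as a description; where the number past the threshold is printed, it stands beside the share of all probe sets and supports nothing.

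The 8 samples were each measured on a whole-transcript array. There were 4 from cells given All stars negative control siRNA, 2 from TRIM44 siRNA 7 and 2 from TRIM44 siRNA 9, 2 different reagents against the same gene. All came from the HSC39 line grown in 10% fetal calf serum, and per the labels TRIM44 siRNA was used at 100 nM (written nm) for 48 h. The protocol text names TRIM44 siRNA for every sample, and in the series text the 2 reagents form a single condition with 4 biological replicates. Whether the replicates were separate cultures is not stated further, so the spread behind each p-value may be technical. Values are log2 levels, on which a difference of -1 means a halving.

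TRIM44, the target, stood at 55.8% of its level with negative siRNA after siRNA 7 and at 58.2% after siRNA 9. Its log2 level was 10.85 and 11.27 on siRNA 7 arrays 1 and 2, and 11.10 and 11.14 on the siRNA 9 arrays. Array medians over single-symbol probe sets lay between 7.505 and 7.583. On the first principal component negative array 2, at 13.6, lay near the siRNA 9 arrays, at 15.5 and 17.2, and away from the other arrays, at -11.8 to -5.57. Epithelial markers (7 of 7 genes, 9 probe sets), among them EPCAM, KRT8 and KRT18, lay between 10.2 and 13.2 in every array. With siRNA 9, 7 of these 9 probe sets had a difference below 0, and both arrays lay below all negative arrays for 5 of 9, against 9.23% of all probe sets, with CDH1 at -0.38 (limma adjusted p = 0.0711) and MUC1 at -0.20. The summed log2 level of the 9 was 106.3 to 107.3 on the negative arrays, 106.3 and 106.5 with siRNA 7, and 105.2 and 106 with siRNA 9, and its part in the siRNA 9 values of the import genes was not tested. Leukocyte markers (3 of 4 genes) lay between 4.07 and 6.65, endothelial markers (3 of 3) between 2.69 and 7.12 and fibroblast markers (5 of 5) between 4.26 and 7.86. In RNA from whole cultures, fewer cells that express a gene and less RNA per cell cannot be told apart.

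Nearly all mitochondrial proteins are made in the cytosol and enter through the TOM complex of the outer membrane, where the receptors TOMM20, TOMM22 and TOMM70 bind precursors and TOMM40 forms the pore. TOMM22 also holds the complex together and links its receptors to the pore. Proteins with a cleavable presequence then pass through the TIM23 complex of the inner membrane, built of TIMM23, TIMM17A or TIMM17B and the receptor TIMM50. TIMM44 anchors the motor around the chaperone HSPA9 that pulls them into the matrix.

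Promoters of such genes often hold sites for ETS family factors such as GABP and for NRF1, so the windows around the starts were searched in the RefSeq promoter table (GRCh38.p14, 250 bases before to 50 after each start). Of the 10 members, 9 were in the table. The letters CCGGAAG, an ETS core, were searched on both strands and stood in 4 of the 9 windows and in 10.3% of all 35116 windows. The full NRF1 consensus, on both strands, stood in 0 of 9 and in 1.48% of all windows, and TATAAA, on both strands, in 0 of 9 and in 11.5%. These motifs were settled on after a wider set had been searched in the same windows, and CCGGAAG was the only one of the 3 found in members. The windows with CCGGAAG are shown because they set the promoter of TOMM22, whose level differed by reagent, beside those of TOMM20, TOMM34 and TIMM23. Each runs from 60 bases before the start to 20 bases from the start on, in the direction of transcription, with CCGGAAG or its complement CTTCCGG in capitals.
TOMM22, chr22:38681897-38681976, plus strand: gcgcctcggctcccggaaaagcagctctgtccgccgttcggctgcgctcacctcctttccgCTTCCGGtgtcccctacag
TOMM20, chr1:235128818-235128897, minus strand: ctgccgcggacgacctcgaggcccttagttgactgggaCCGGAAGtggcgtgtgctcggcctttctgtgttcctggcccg
TOMM34, chr20:44960378-44960457, minus strand: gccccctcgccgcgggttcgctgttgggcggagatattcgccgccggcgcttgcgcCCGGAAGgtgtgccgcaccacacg
TIMM23, chr10:45972429-45972508, plus strand: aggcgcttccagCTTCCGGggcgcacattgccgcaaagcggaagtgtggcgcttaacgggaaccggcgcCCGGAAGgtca
In TOMM22 the match began at base 2 of the transcript. In TOMM20 it began 22 bases and in TOMM34 4 bases before the start, and TIMM23 held 2 matches, 1 of them 48 bases before the start and 1 at base 10 of the transcript. Of these 4 genes, TOMM20 and TOMM34 kept within the range of the negative arrays on both siRNA 9 arrays, while TOMM22 and the single-symbol probe set of TIMM23 lay below it. That TIMM23 probe set is dim and variable (within-group SD at percentile 99.5). A brighter one shared with TIMM23B differed by -0.06. TOMM22 was chosen by its low siRNA 9 level, so nothing is read from these levels about the motif. A match is a description of the letters and not of binding.

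TOMM22, the central receptor of the TOM complex, had a low level with siRNA 9 alone. On its brighter probe set the log2 level was 11.93, 11.91, 12.06 and 12.05 on negative arrays 1 to 4, 12.09 and 12.40 on the siRNA 7 arrays, and 10.83 and 10.92 on the siRNA 9 arrays. The siRNA 9 arrays lay below every negative array, and the siRNA 7 arrays lay above every negative array. The mean of the negative arrays was 11.99 ± 0.08 (SD, n = 4). That of the siRNA 7 arrays was 12.24 ± 0.22 (SD, n = 2), and that of the siRNA 9 arrays 10.87 ± 0.07 (SD, n = 2). The siRNA 9 mean was lower than the negative mean by -1.11 (SE 0.11), that is 46.2% of the negative level. This was the third lowest difference among the 19158 probe sets (rank 3), which describes how the gene came to be chosen. Negative array 2, which lay near the siRNA 9 arrays on the first principal component, had a TOMM22 level of 11.91 and lay with the other negative arrays. This is 1 array, and the part of that component in the siRNA 9 values was not tested.

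**Figure D1:**
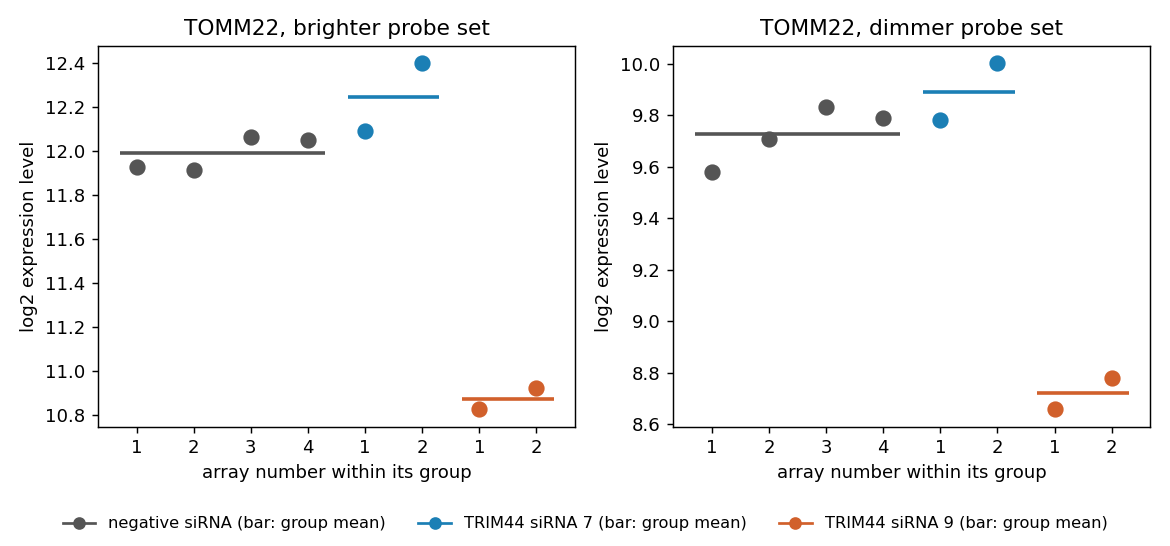
Log2 expression level of TOMM22 (vertical axis) on each array (horizontal axis, number within its group) for the brighter probe set, left, and the dimmer one, right; points are arrays and bars are group means. On both, the siRNA 9 arrays (10.83 and 10.92, and 8.66 and 8.78) lie below all 4 negative arrays.

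The dimmer probe set of TOMM22 had the same order of groups at a lower signal. Its levels were 9.58, 9.71, 9.83 and 9.79 on the negative arrays, 9.78 and 10.00 on the siRNA 7 arrays, and 8.66 and 8.78 on the siRNA 9 arrays. Here the siRNA 9 arrays again lay below every negative array, while siRNA 7 array 1 lay within the negative range. The siRNA 9 mean was lower than the negative mean by -1.01 (SE 0.11), or 49.8% of the negative level. Over the 8 arrays the 2 probe sets had a Pearson r of 0.995. They carry the same annotated transcripts, and RefSeq lists pseudogene copies of TOMM22 that may add to the signal, so they are not independent measurements of the gene. By probe set number the dimmer one lies between those of CBY1 and GTPBP1, genes near TOMM22. The brighter one is numbered apart from the genes near TOMM22, and whether it was designed on a copy was not tested.

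With siRNA 7, whose arrays had no part in the choice of TOMM22, the gene was not lower. The 4 negative arrays are shared with the comparison that led to the choice, so the siRNA 7 values are not independent of it. The brighter probe set differed from negative siRNA by 0.26 (SE 0.11, 95% interval 0.03 to 0.49) and did not pass the threshold of 0.05 on the adjusted p (limma adjusted p = 0.600 over 19158 probe sets, unadjusted 0.0324). A 2-sided exact permutation test of this difference gave p = 0.133, the smallest that 15 assignments of 2 and 4 arrays allow. The value rests mainly on siRNA 7 array 2, since the difference was 0.10 without that array and 0.41 without siRNA 7 array 1. The dimmer probe set differed by 0.17 (SE 0.11, 95% interval -0.06 to 0.40, limma adjusted p = 0.841). TRIM44 itself differed between the reagents, siRNA 9 minus siRNA 7, by 0.06 (95% interval -0.24 to 0.36), and TOMM22 by -1.37. With both reagents taken as 1 condition, which includes the siRNA 9 arrays, TOMM22 had -0.43 (SE 0.29), a mean of arrays on either side of the negative ones.

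No member passed in siRNA 7 against negative siRNA, where 0.0679% of all probe sets did (13 of 19158). An unadjusted p under 0.05 was reached by 1 of the 9 member probe sets, the brighter one of TOMM22, and by 1430 of all 19158 (7.46%). All 9 member differences were above 0, from 0.01 to 0.26 with a median of 0.12. Over all 19158 probe sets 9440 were above 0, and the median was -0.00. TOMM22 counts with 2 of the 9, and without it the median over 7 was 0.08. The sign turned for TIMM17A and TIMM23 without siRNA 7 array 2, and for TIMM44 without siRNA 7 array 1. Both siRNA 7 values exceeded the negative range for 1 of 9, the brighter TOMM22 probe set, against 6.38% of all probe sets. With both reagents as 1 condition, 0 of 9 passed in limma and 0 had an unadjusted p under 0.05, where 0.00522% of all probe sets passed, namely TRIM44. That comparison also holds the siRNA 9 arrays, so this count too is a description.

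In siRNA 9 against negative siRNA, 2 of 9 member probe sets passed, both of TOMM22, where 0.924% of all probe sets did. Since this comparison chose TOMM22, nothing is read from that count, which was 0 in limma without either siRNA 9 array (2 at an unadjusted p under 0.05). Of the 7 probe sets of the other members, 6 had a difference below 0 with a median of -0.07, and, as a description, 0 passed in limma and 0 had an unadjusted p under 0.05. Both siRNA 9 arrays lay below all negative arrays for 3 of 9, the TOMM22 pair and TIMM23, against 9.23% of all probe sets.

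**Figure D2:**
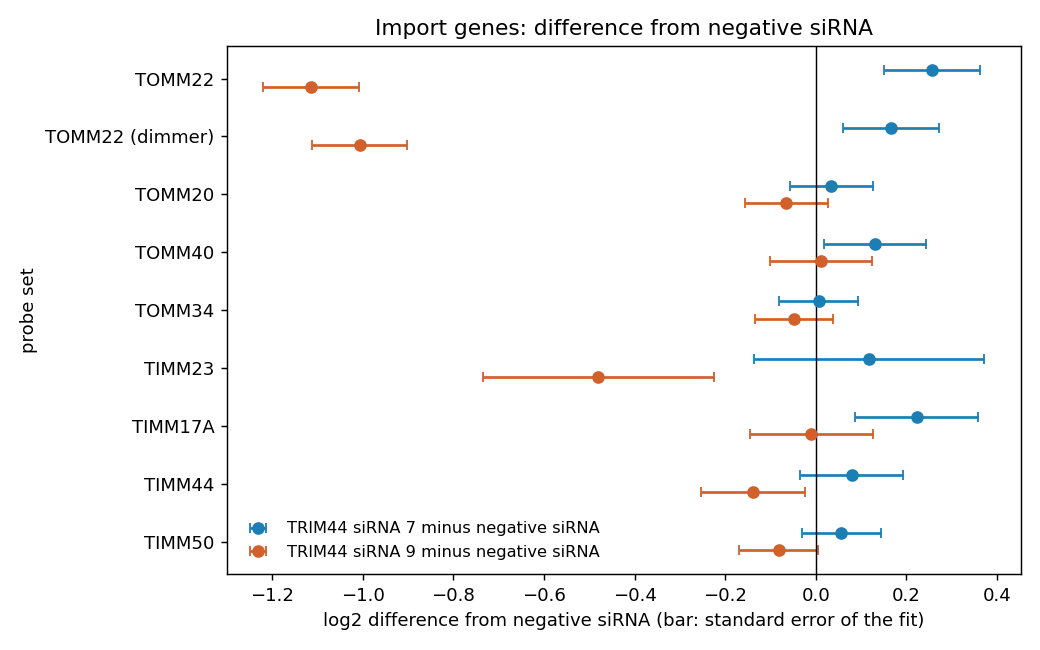
Log2 difference from negative siRNA (horizontal axis) for each member probe set (vertical axis), with siRNA 7 in blue and siRNA 9 in orange; bars are the standard error of the fit. The TOMM22 probe sets with siRNA 9, at -1.11 and -1.01, stand away from the other members, which lie between -0.48 and 0.22.

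TOMM20, the receptor that first binds presequences, stayed within the negative range with both reagents. Its log2 level was 10.70, 10.62, 10.55 and 10.48 on the negative arrays, 10.59 and 10.65 with siRNA 7, and 10.53 and 10.52 with siRNA 9. The siRNA 7 arrays lay slightly above the siRNA 9 arrays. The difference from negative siRNA was 0.03 with siRNA 7 (95% interval -0.17 to 0.24, limma adjusted p = 0.998) and -0.07 (SE 0.09) with siRNA 9, or 95.6% of the negative level.

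TOMM40, the pore, also overlapped between groups. It stood at 9.76, 9.84, 9.89 and 10.03 on the negative arrays, 9.92 and 10.10 with siRNA 7, and 10.03 and 9.75 with siRNA 9. The siRNA 9 arrays lay near either end of the negative range. Differences were 0.13 with siRNA 7 (95% interval -0.12 to 0.38, limma adjusted p = 0.924) and 0.01 (SE 0.11) with siRNA 9.

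TOMM34, a cytosolic cochaperone that keeps precursors fit for import, had the smallest within-group SD of the 9 probe sets. Its levels were 11.00, 10.89, 11.05 and 11.00 on the negative arrays, 10.99 and 10.99 with siRNA 7, and 10.95 and 10.92 with siRNA 9, all within the negative range. This SD, 0.05, was lower than that of most probe sets (percentile 3.77). The differences were 0.01 with siRNA 7 (95% interval -0.18 to 0.20, limma adjusted p = 0.998) and -0.05 (SE 0.09) with siRNA 9.

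TOMM5 and TOMM7, small subunits that support assembly of the pore, were seen only through shared probe sets, which lie outside the rule. The probe set shared by TOMM5 and FBXO10 stood at 9.65 to 9.89 on the negative arrays, 9.68 and 10.06 with siRNA 7, and 10.05 and 10.06 with siRNA 9. Both siRNA 9 values exceeded the negative range, and their mean was 0.32 above the negative mean. The probe set shared by TOMM7 and C4orf46 stood at 7.98 to 8.11 on the negative arrays and at 7.94 to 8.06 on the siRNA arrays, which overlapped. Neither was tested, and neither can be assigned to 1 gene.

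Among the inner membrane genes TIMM23, the channel, was the most variable. Its single-symbol probe set stood at 6.62, 7.22, 6.88 and 7.16 on the negative arrays, 6.51 and 7.67 with siRNA 7, and 6.53 and 6.45 with siRNA 9. The siRNA 7 arrays lay on either side of all negative arrays, and the siRNA 9 arrays below all of them. The difference was 0.12 with siRNA 7 (95% interval -0.44 to 0.67, limma adjusted p = 0.993), and -0.46 without siRNA 7 array 2. With siRNA 9 it was -0.48 (SE 0.25). This probe set has a within-group SD of 0.43, above nearly all others (percentile 99.5), and its annotation rests on a single transcript record. The brighter probe set shared by TIMM23 and its near-identical copy TIMM23B stood at 11.40 to 11.66 on the negative arrays, 11.65 and 11.76 with siRNA 7, and 11.39 and 11.53 with siRNA 9. It did not show the low siRNA 9 values, since its siRNA 9 mean differed from the negative mean by -0.06.

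TIMM17A, a channel partner of TIMM23, stood at 8.74, 9.00, 8.88 and 8.99 on the negative arrays, 8.86 and 9.39 with siRNA 7, and 8.88 and 8.91 with siRNA 9. Only siRNA 7 array 2 left the negative range. The difference with siRNA 7 was 0.22 (95% interval -0.07 to 0.52, limma adjusted p = 0.827), and -0.04 without that array. With siRNA 9 it was -0.01 (SE 0.14).

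TIMM50, the receptor of the TIM23 complex, was narrow in range. It stood at 11.39, 11.34, 11.45 and 11.47 on the negative arrays, 11.50 and 11.44 with siRNA 7, and 11.35 and 11.30 with siRNA 9. Each reagent had 1 array inside the negative range, and both siRNA 7 arrays lay above both siRNA 9 arrays. The differences from negative siRNA were 0.06 with siRNA 7 (95% interval -0.13 to 0.25, limma adjusted p = 0.989) and -0.08 (SE 0.09) with siRNA 9. TIMM44, which anchors the import motor, stood at 10.48, 10.19, 10.49 and 10.44 on the negative arrays, 10.59 and 10.37 with siRNA 7, and 10.35 and 10.17 with siRNA 9. Negative array 2 lay low among its group, near the lower siRNA 9 array. The differences were 0.08 with siRNA 7 (95% interval -0.17 to 0.33, limma adjusted p = 0.983) and -0.14 (SE 0.11) with siRNA 9.

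The members without TOMM22 were also summarised by array. The median over their 7 probe sets of the level minus the negative mean was -0.05 and -0.11 on the siRNA 9 arrays, 0.01 and 0.06 on the siRNA 7 arrays, and -0.04 to 0.06 on the negative arrays. The lowest negative median, on array 2, was -0.043, and that of siRNA 9 array 1 was -0.052. On the siRNA 9 arrays the same median was 0.01 and -0.02 over the other import genes and 0.05 and -0.0004 over all probe sets. Over the 8 arrays the Pearson r with the brighter TOMM22 probe set ran from 0.26 for TOMM40 to 0.725 for TIMM50, values that share the 2 low siRNA 9 arrays.

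**Figure D3:**
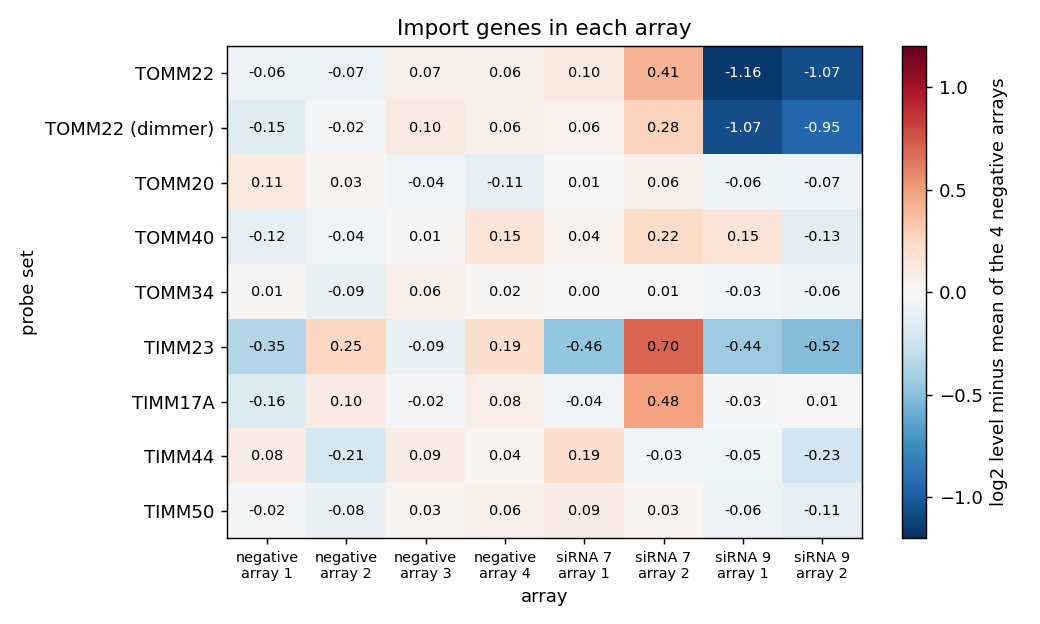
Log2 level minus the mean of the 4 negative arrays (colour and printed value) for each member probe set (rows) on each of the 8 arrays (columns). The dark blue cells of TOMM22 on the siRNA 9 arrays contrast with the pale rows of TOMM20, TOMM34 and TIMM50, and siRNA 7 array 2 is highest for TIMM23 and TIMM17A.

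Among 40 other genes of import, processing and membrane insertion, 37 were measured by 39 probe sets. With siRNA 7, 0 of 39 passed in either direction in limma, 1 had an unadjusted p under 0.05, and the median was 0.02. With siRNA 9, 0 of 39 passed as higher and 1 of 39 as lower, TIMMDC1, where 0.334% and 0.59% of all probe sets passed. An unadjusted p under 0.05 was reached by 6 of 39 with siRNA 9, beside 13.6% of all probe sets (2608 of 19158), and the median was 0.00, beside 0.02 over all probe sets. Both siRNA 9 arrays lay below all negative arrays for 9 of 39 and above them for 4 of 39. Over all 19158 probe sets these were 1768 (9.23%) and 2573. TOMM70, the third TOM receptor, had a negative mean of 10.31 ± 0.08 (SD, n = 4) and differed by 0.12 with siRNA 7 and -0.01 with siRNA 9. HSPA9, the motor chaperone, differed by 0.07 and 0.06, and SAMM50, which inserts barrel proteins such as TOMM40, by -0.01 and -0.13. Besides TIMMDC1, the 6 with siRNA 9 held TIMM8A (0.50), GRPEL2 (-0.52), GFER (-0.36), TIMM22 (-0.32) and TIMM13 (-0.23). Their limma adjusted p ran from 0.0752 to 0.311.

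TIMMDC1, an assembly factor of respiratory complex I that resembles the TIM17 and TIM23 proteins, fell with siRNA 9. Its levels were 11.11, 11.13, 11.15 and 11.08 on the negative arrays, 11.09 and 11.14 with siRNA 7, and 10.55 and 10.76 with siRNA 9. The siRNA 9 arrays lay below all others. The difference was -0.46 (SE 0.09, limma adjusted p = 0.0411), and -0.0049 with siRNA 7 (limma adjusted p = 0.998). The call is at the edge of the threshold. It ended with each of negative arrays 1, 3 and 4 left out (adjusted p = 0.110, 0.152 and 0.0597), without either siRNA 7 array (0.0560) and without siRNA 9 array 1 (-0.36, 0.503) or 2 (-0.56, 0.195). It also ended with all probe sets tested (0.130). Between the reagents TIMMDC1 differed by -0.45 (limma adjusted p = 0.0487; 2.23% of all probe sets passed), a call that ended without negative array 1 or 3, or any 1 of the siRNA arrays (0.0746 to 0.374).

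**Figure D4:**
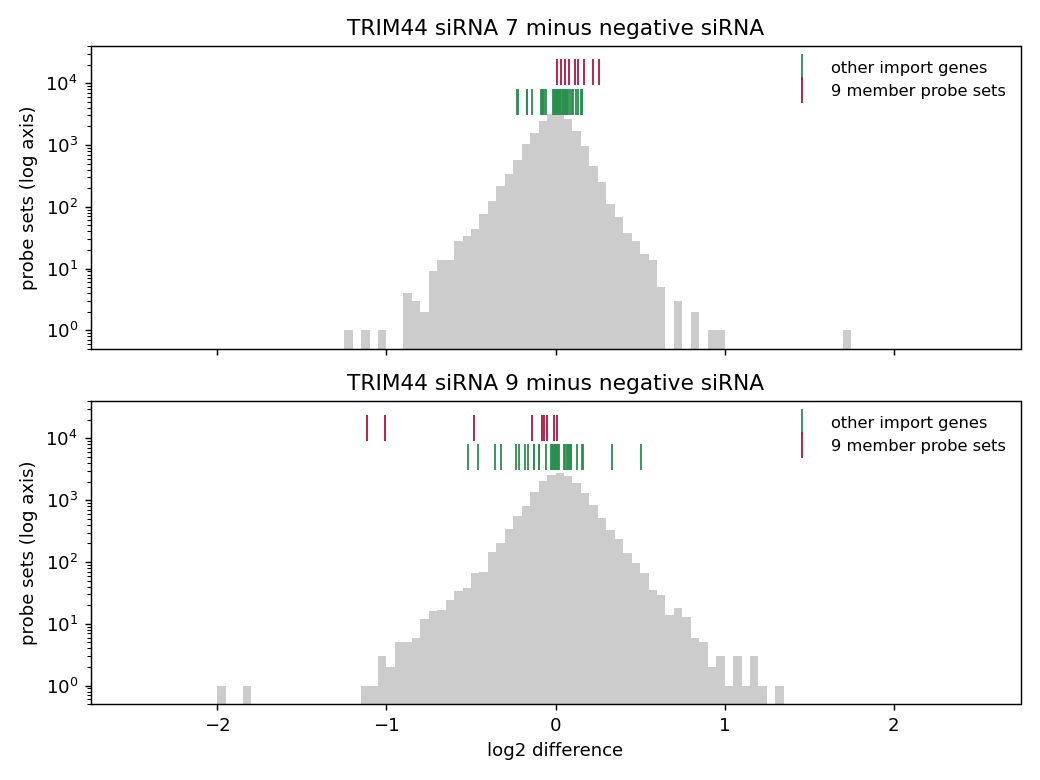
Number of probe sets (vertical log axis) by log2 difference from negative siRNA (horizontal axis), siRNA 7 above and siRNA 9 below, over all 19158; ticks mark the 9 member probe sets (red) and the 39 of other import genes (green). With siRNA 9 the TOMM22 ticks, at -1.11 and -1.01, lie in the far lower tail and most other ticks near 0.

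Further lists give the state of mitochondria more broadly. Of 18 genes related to mitochondrial mass, 16 were measured by 18 probe sets, and 0 passed against negative siRNA with either reagent in limma (3 of 18 at an unadjusted p under 0.05 with each, beside 7.46% of all probe sets with siRNA 7 and 13.6% with siRNA 9); medians were 0.07 with siRNA 7 and -0.02 with siRNA 9. The 3 with siRNA 7 were PPARGC1A (-0.35), PPRC1 (0.29) and the dimmer VDAC2 probe set (0.26), at limma adjusted p of 0.561 to 0.578. The 3 with siRNA 9 were CHCHD3, IDH3A (-0.31, adjusted p = 0.190) and PPRC1 (-0.28, adjusted p = 0.305). CS, citrate synthase, a common measure of mitochondrial content, stood at 12.13 ± 0.09 (SD, n = 4) and differed by 0.02 and -0.10. CHCHD3, of the complex that shapes the inner membrane folds, stood at 11.28, 11.40, 11.24 and 11.17 on the negative arrays, 11.36 and 11.51 with siRNA 7, and 10.69 and 10.89 with siRNA 9. The siRNA 9 arrays lay below all others, at a difference of -0.48 from negative siRNA (SE 0.10, limma adjusted p = 0.0521) and of -0.64 from siRNA 7 (SE 0.12, adjusted p = 0.0203). The latter call ended without siRNA 7 array 2 (0.139), without siRNA 9 array 1 (0.240) or 2 (0.125), and with all probe sets tested (0.0852).

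Of 19 mitochondrial stress and quality control genes, 18 were measured by 19 probe sets, and 0 passed against negative siRNA with either reagent in limma (2 and 4 of 19 at an unadjusted p under 0.05, beside the same 7.46% and 13.6%). Medians were -0.06 with siRNA 7 and 0.02 with siRNA 9. The matrix chaperonin HSPD1 differed by 0.01 and 0.04. The 4 at an unadjusted p under 0.05 with siRNA 9 were DDIT3 (0.49), BNIP3 (0.295), HSPE1 (0.29) and the brighter TRAP1 probe set (-0.23). Their limma adjusted p ran from 0.241 to 0.335. The 2 with siRNA 7 were ATF5 (0.30, limma adjusted p = 0.613) and FUNDC1. FUNDC1, a receptor for the removal of mitochondria by autophagy, stood at 8.08, 8.29, 8.11 and 8.33 on the negative arrays, 7.64 and 7.71 with siRNA 7, and 8.29 and 8.32 with siRNA 9. Its siRNA 7 arrays lay below all others. The difference with siRNA 7 was -0.53 (limma adjusted p = 0.0856), and siRNA 9 lay above siRNA 7 by 0.63 (SE 0.12, adjusted p = 0.0200). That call ended with either siRNA 7 array (0.0903 and 0.0920) or either siRNA 9 array (0.189 and 0.164) left out, and with all probe sets tested (0.0852).

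**Figure D5:**
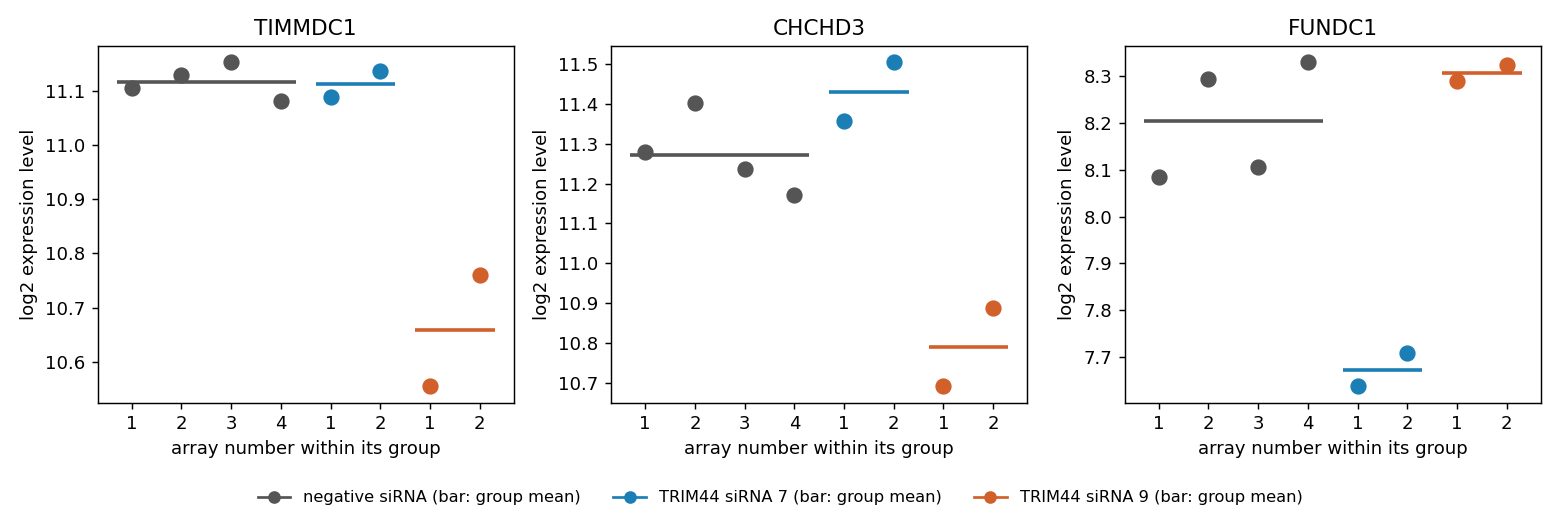
Log2 expression level (vertical axis) of TIMMDC1, CHCHD3 and FUNDC1 on each array (horizontal axis, number within its group); points are arrays and bars are group means. The siRNA 9 arrays are lowest for TIMMDC1 (10.55 and 10.76) and CHCHD3 (10.69 and 10.89), and the siRNA 7 arrays are lowest for FUNDC1 (7.64 and 7.71).

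The 10 protein-coding genes nearest TOMM22 in the RefSeq order, 5 on each side, were all measured. In limma 0 passed with either reagent, beside 0.0679% of all probe sets with siRNA 7 and 0.924% with siRNA 9. At an unadjusted p under 0.05 there were 1 with siRNA 7 and 2 with siRNA 9, beside 7.46% and 13.6% of all probe sets. Next to TOMM22, CBY1 differed by -0.22 with siRNA 7 and -0.15 with siRNA 9, and JOSD1 by 0.07 and -0.10. The smallest p-values were those of GTPBP1, at -0.42 with siRNA 9 (limma adjusted p = 0.0933), and DDX17, at 0.38 with siRNA 9 (adjusted p = 0.230). With siRNA 9 the neighbours ran from -0.42 to 0.38 with a median of -0.04. Since TOMM22 was chosen by its low siRNA 9 level, nothing is read from its distance to them.

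The genes most like TOMM22 across the 8 arrays, among the 50% of probe sets with the higher mean levels, were PLOD3, a collagen lysyl hydroxylase gene (Pearson r = 0.990), ARF3 (0.990), KIAA1191 (0.990), NGRN (0.989) and SAMD4B (0.988). All 5 had a lower mean with siRNA 9 and a higher mean with siRNA 7 than with negative siRNA, from -0.94 and 0.21 for PLOD3 to -0.20 and 0.06 for ARF3. Those of lowest r were TBRG1 (-0.984), PDZD8 (-0.983), DYRK2 (-0.976), DNAJB6 (-0.970) and SLC10A7 (-0.969), with means in the opposite order. These values describe the 8 arrays, and each r includes the step between the siRNA 9 arrays and the rest.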

How the data were processed

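RNA of 8 HSC39 samples was measured on whole-transcript arrays. The authors deposited log2 expression levels for 32321 probe sets. The submitters' processing notes name limma; normalization, genome build and filters are not given in the sources consulted. At any 1 rank the sorted values of the arrays lay within 0.180 of each other. Symbols came from the platform annotation, looked up by gene ID in RefSeq (GRCh38.p14; 19128 of 19158 found, 0 changed). Probe sets with several symbols (1388) or none (11775) were left out of the fit.

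limma 3.58.1 in R 4.3.3 was fitted to 3 group means (and to 2 groups, both reagents together), with 2-sided moderated tests, Benjamini-Hochberg adjustment over 19158 probe sets and a threshold of 0.05, and was tested on simulated data. No filter on level was used; dim probe sets cannot be told from absent ones, and precision is limited by how few arrays there are. Members and lists were chosen with earlier results of these data known. Named genes are all members and those past the threshold in other lists (otherwise the 2 of smallest p). Added to these are 5 at each end by correlation with TOMM22. Further genes given by value were chosen for their role or place, or because they had an unadjusted p under 0.05 with 1 of the reagents. Alternatives were other scalings, filters, variance priors, array weights, a replicate block, a random reagent block (statmod 1.5.0), only the arrays compared and leaving out each array. Figures used matplotlib 3.10.9.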

Additional observations from a re-analysis of the deposited data

Results flagged for a closer look

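TOMM22 lay above the negative mean on both siRNA 7 arrays and below it on both siRNA 9 arrays, with a difference between the reagents, siRNA 9 minus siRNA 7, of -1.37 on the brighter probe set and -1.17 on the dimmer. Such opposite movement of every array was also seen at small size for TIMM50 (-0.14), TOMM20 (-0.10) and TOMM34 (-0.055), where all 4 siRNA arrays of TOMM20 and TOMM34 lay within the negative range. Together these were 5 of 9 member probe sets, among them both of TOMM22, against 18.7% of all 19158. The TOMM22 pair measures a single gene chosen by its low siRNA 9 level, so nothing is read from this count. No test of these differences is given, because the siRNA 9 arrays had a part in the choice of TOMM22. For TIMM44, negative array 2 (10.19) stood apart from the other negative arrays (10.44 to 10.49), with a gap of 0.833 of the group's range, just above the 95% critical value of Dixon's test; chance flags about 1 in 20 groups of this size.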

How the results depend on the processing

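Results were recomputed under 16 alternatives, 15 for TIMM23, which left the upper 50% of probe sets. The number of members past the threshold stayed at 0 with siRNA 7, at 0 with both reagents together and at 0 for other import genes with siRNA 7. With siRNA 9 it was 2 except without either siRNA 9 array, when limma called 0 members (2 at an unadjusted p under 0.05) and 0 of all probe sets (1449 and 1543 at an unadjusted p under 0.05; range 0 to 2 with each array left out) and the spread of the lone array is taken from the other groups. On its brighter probe set TOMM22 with siRNA 9 differed by -1.16 to -1.07 with each array left out and by -1.15 to -1.05 otherwise. With siRNA 7 it differed by 0.10 to 0.41 with each array left out (limma adjusted p over all alternatives 0.302 to 0.999). Signs of small siRNA 7 differences turned for TOMM20 (-0.038 with the replicate block) and TOMM34 (-0.032 with array weights); the cause was not tested. With each array left out, the siRNA 7 range was -0.039 to 0.48 for TIMM17A, -0.0012 to 0.072 for TOMM20, -0.46 to 0.70 for TIMM23, -0.031 to 0.19 for TIMM44 and -0.024 to 0.027 for TOMM34. With the replicate number as a block TOMM22 had 0.32 with siRNA 7 and -1.05 with siRNA 9, and the TIMMDC1 calls ended (adjusted p = 0.163, and 0.0656 between reagents). Same-numbered arrays correlated in their deviations at 0.268 and 0.306 (negative and siRNA 7) and at 0.0583 and 0.131 (negative and siRNA 9). For siRNA 7 and siRNA 9, with 2 arrays each, both numbers give 0.0244 by construction. Whether equal numbers mark a shared batch was not tested, and the main fit did not use them as pairs. The TIMMDC1, CHCHD3 and FUNDC1 values under alternatives were added after seeing the data; TIMMDC1 also lost its calls with only the arrays compared (0.0560 and 0.0567) and the reagent call after quantile normalization (0.0504).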
